A study of Homo sapiens with 10 samples.

Results

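The Nodal genes described here are 10 of the 55841 gene identifiers of a human embryonic stem cell RNA sequencing study: the ligands NODAL and GDF3, the co-receptor TDGF1, the inhibitors LEFTY1 and LEFTY2, the receptors ACVR1B, ACVR2A and ACVR2B, and the signal transducers SMAD2 and SMAD3. They were chosen by name as ligands, inhibitors, receptors and SMADs of the pathway, and each was found by its Ensembl identifier. All 10 passed the filter on low counts that left 23552 genes for testing. Levels are given in CPM (counts relative to the TMM-scaled library size) and differences as log2 fold changes, HHH minus general.

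The cells, labelled HES9, were human embryonic stem cells grown without feeder cells in mTeSR1 on Matrigel. The general population held all cells, unsorted, and the sorted GCTM-2highCD9highEPCAMhigh population, HHH, held those with the highest levels of all 3 surface antigens. Each population had 5 libraries of total RNA, 2 in batch 1 and 3 in batch 2 as the titles state. The general population contains HHH cells too, so a difference is one between sorted cells and the mixture from which they came. Nothing in the labels says that libraries came from separate cultures, so p-values measure the spread between these samples, which may be technical. The study's text calls its cells WA09, and its design text mentions a protein kinase C inhibitor that no label carries; neither point is resolved here.

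Nodal is a secreted ligand of the TGF-beta family. With the co-receptor TDGF1 it binds type I and type II activin receptors, which phosphorylate SMAD2 and SMAD3, and these enter the nucleus with SMAD4 and bind DNA beside partners such as FOXH1. LEFTY1 and LEFTY2 are secreted inhibitors whose genes, like NODAL itself, are known targets of the pathway, and activin or Nodal signalling is known to maintain pluripotency in human embryonic stem cells.

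Total counts ran from 47242595 to 78503395 per library, and a count of 3, used as the detection limit, is worth 0.0460 to 0.0687 CPM in these libraries, which allows for counting error only. EPCAM, one of the sorted antigens, was higher in HHH (log2 fold change 0.41 ± 0.08 SE, adjusted p = 0.0064). CD9, another, did not pass over both batches (0.29 ± 0.12 SE, adjusted p = 0.20), stood at -0.10 in batch 1 alone, where the populations overlapped, and passed in batch 2 alone (0.54, adjusted p = 0.0028) and with paired libraries (adjusted p = 0.019). Markers of undifferentiated cells were abundant in every library, with 5 of 5 averaging over 1 CPM in each population and a summed level of 3307 to 4777 CPM in general and 3218 to 4345 CPM in HHH libraries. Of these 5, NANOG rose (0.44 ± 0.08 SE, adjusted p = 0.0057) and SOX2 fell (-0.26 ± 0.07 SE, adjusted p = 0.037). Neural markers were present at low levels and differed between the populations. Their summed level was 5.08 to 14.7 CPM in general and 2.09 to 7.34 CPM in HHH libraries, and of 9 listed, 5 tested, 3 fell in HHH (LHX5, ZIC1 and SOX1) and none rose over both batches. SIX6 stood at 1.05 ± 0.31 (SE, adjusted p = 0.066) and was higher in batch 2 alone (1.1, adjusted p = 0.0092). FEZF2, too low for the test over both batches, stood at 3.11 and 5.22 CPM in the HHH libraries of batch 1 (batch 1 alone 6.92 on the log2 scale, adjusted p = 4.9e-04) and at 0.0353 CPM or less in all others. SIX3, also too low for that test, stood at 0.151 to 0.850 CPM in general and 0 to 0.0691 CPM in HHH libraries. In batch 2 alone SIX3 fell (-4.17, adjusted p = 2.9e-04). None of the 9 neural markers was at 0 in all libraries. The 8 mesendoderm markers summed to 0.766 to 1.47 CPM in general and 0.936 to 2.59 CPM in HHH. Within this sum FOXA2 stood at 1.67 and 1.37 CPM in the HHH libraries of batch 1 (batch 1 alone, adjusted p = 0.36). It was at 0.107 and 0.905 CPM in the general libraries of batch 1, and at 0.206 CPM or less in batch 2. TBXT was lower in HHH in batch 2 alone (-1.85, adjusted p = 0.0027). Of 6 fibroblast markers, LUM, DCN and COL3A1 averaged under 0.1 CPM in each population, while the whole list summed to 259.5 to 278.0 CPM in general and 288.1 to 341.9 CPM in HHH, mostly THY1 and COL1A2. Within it THY1 alone rose (0.61 ± 0.08 SE, adjusted p = 4.5e-04), from 141.2 CPM in general to 216.4 CPM in HHH on average. COL1A1 fell (-0.94 ± 0.16 SE, adjusted p = 0.0033) and COL1A2 stood at -0.28 ± 0.10 (SE, adjusted p = 0.11). The higher sum in HHH thus came from THY1 and is not a measure of more fibroblasts. The part of these other markers in the results on Nodal genes was not tested, and in bulk libraries fewer cells of a type and less RNA per cell cannot be told apart.

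The comparison of HHH with general cells asked whether genes of the pathway differed in the sorted fraction. NODAL and both of its inhibitors, LEFTY1 and LEFTY2, rose in HHH by 1.61-fold to 2.06-fold, and in each batch every HHH library was above every general one. GDF3 and TDGF1 had positive differences that did not pass the test over both batches. None of the 3 receptors and neither SMAD passed it, with log2 differences between -0.13 and 0.13. The count was thus 3 of 10, all higher, where 5.83% of all 23552 tested genes passed at an adjusted p under 0.05 by edgeR's quasi-likelihood test (1.94% higher and 3.89% lower), and the same 3 also changed over 1.5-fold, as did 2.98% of all genes (0.637% higher and 2.34% lower). The median log2 fold change was 0.23 over the 10 genes and 0.02 over all tested genes. The study itself names NODAL, LEFTY1 and LEFTY2 from these samples, so their count is not independent evidence of a direction.

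**Figure D1:**
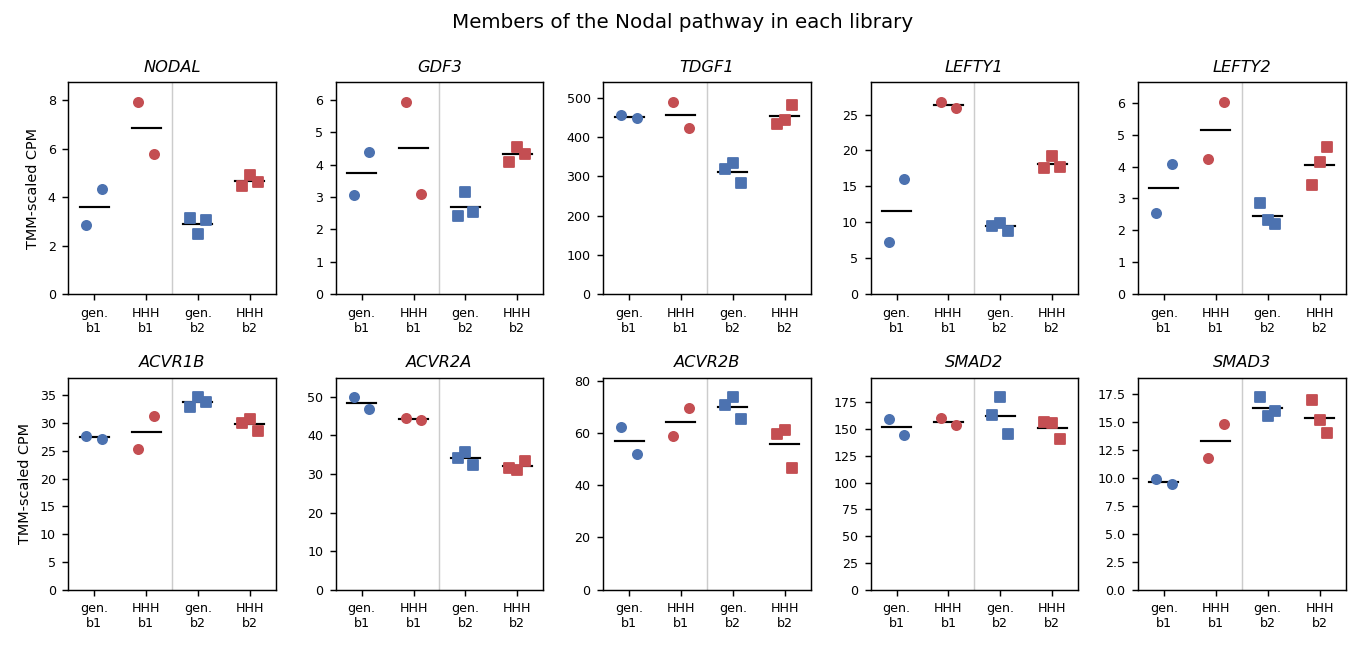
Level of each of the 10 Nodal genes in every library, in TMM-scaled CPM on a linear axis from 0 that differs between panels (gen., general, blue; HHH, red; b1 and b2, batches 1 and 2; points, libraries; black lines, means). NODAL, LEFTY1 and LEFTY2 have every HHH library above every general library of the same batch.

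**Figure D2:**
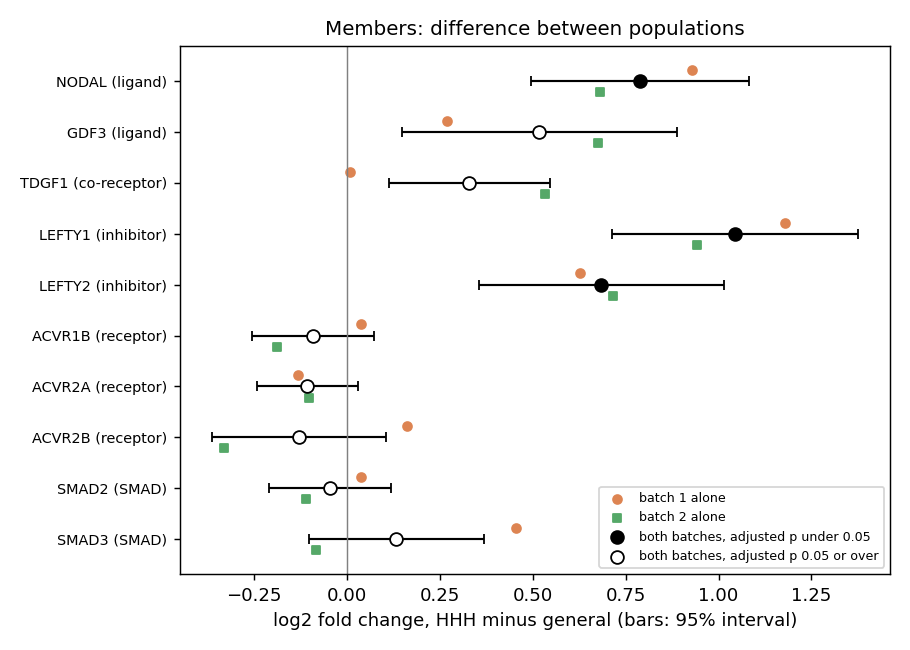
Log2 fold change of each Nodal gene, HHH minus general, over both batches (circles with 95% intervals, filled where the adjusted p was under 0.05) and in each batch alone (small symbols). The intervals of NODAL, LEFTY1 and LEFTY2 lie above 0, as do those of GDF3 and TDGF1, while the 5 receptor and SMAD intervals cross 0.

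NODAL (ENSG00000156574, chromosome 10) encodes the ligand. In batch 1 it stood at 2.86 and 4.34 CPM in the general libraries and at 7.95 and 5.79 CPM in HHH. In batch 2 it stood at 3.12, 2.49 and 3.07 CPM in general and at 4.48, 4.91 and 4.61 CPM in HHH. Every HHH library was thus above every general library, across batches too, and the closest were the general library of batch 1 replicate 2 and the HHH library of batch 2 replicate 1. The log2 fold change was 0.79 ± 0.14 (SE; 95% interval 0.50 to 1.08; adjusted p = 0.0031), with 0.93 in batch 1 alone (adjusted p = 0.18) and 0.68 in batch 2 alone (adjusted p = 0.0055). The depth behind these values was 142 to 371 counts a library, and counting error alone is 8.39% at the lowest.

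The promoter of NODAL is shown because NODAL is the gene among the 3 called whose promoter sequence was at hand. These are the 250 bases before its RefSeq start at chr10:70441682-70441931 (GRCh38.p14, minus strand), written 5′ to 3′ in the direction of the gene, with the letters CAGAC, a short SMAD-binding element, in capitals.
NODAL promoter: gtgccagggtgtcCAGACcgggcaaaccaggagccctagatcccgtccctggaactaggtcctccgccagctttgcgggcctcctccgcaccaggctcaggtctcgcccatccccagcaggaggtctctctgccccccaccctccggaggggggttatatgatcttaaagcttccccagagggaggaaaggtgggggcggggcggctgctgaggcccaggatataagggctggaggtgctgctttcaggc
Of the 10 genes, 8 had promoter entries, with 15 start sites in all. Both strands were searched for CAGAC (its other strand reads GTCTG), which was found in 4 of these 15 windows, against 38.0% of the 35116 windows of 250 bases over all genes. The letters GGCGC, to which SMADs also bind, were in 5 of the 15 windows against 44.5% of all. The FOXH1 motifs AATCCACA and AATACACA, the palindrome GTCTAGAC and the longer AGCCAGACA, which contains CAGAC, were in 0 of the 15, and 0.709%, 0.666%, 0.182% and 0.231% of all windows hold them. A match of letters is a description of these windows only.

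GDF3 (ENSG00000184344, chromosome 12) encodes a second TGF-beta family ligand made by pluripotent cells. In batch 1 the general libraries stood at 3.08 and 4.41 CPM and the HHH libraries at 5.96 and 3.09 CPM. In batch 2 they stood at 2.41, 3.16 and 2.53 CPM in general and 4.08, 4.56 and 4.35 CPM in HHH. The populations overlapped in batch 1, where the HHH library of replicate 3 lay within the general range, and were apart in batch 2. Over both batches its log2 fold change was 0.52 ± 0.17 (SE; 95% interval 0.15 to 0.89; adjusted p = 0.0996). With libraries of the same batch and replicate number paired, it was 0.62 with an adjusted p of 0.011. That paired fit called 4 of the 10 genes (NODAL, LEFTY1, GDF3 and TDGF1), where it called 6.95% of all genes. In batch 2 alone the GDF3 value was 0.67 (adjusted p = 0.0079), and without the HHH library of batch 1 replicate 3 it was 0.68 (adjusted p = 0.0056). The paired fit also draws nothing from that library, which has no partner, so these fits are not separate evidence. Leaving out the general library of batch 1 replicate 2 also brought GDF3 past the threshold (0.64, adjusted p = 0.043). The test of the difference between the batches gave an adjusted p of 0.53.

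TDGF1 (ENSG00000241186, chromosome 3), also called CRIPTO, encodes the membrane-anchored co-receptor of Nodal and is a common marker of undifferentiated cells. In batch 1 it stood at 456.1 and 449.1 CPM in general and 491.2 and 423.3 CPM in HHH. In batch 2 it stood at 319.0, 334.0 and 283.3 CPM in general and 433.9, 444.6 and 482.0 CPM in HHH. The general libraries of batch 2 were the low ones, and the HHH libraries of batch 2 were near the level of all libraries of batch 1. Its log2 fold change was 0.33 ± 0.10 (SE; 95% interval 0.11 to 0.55; adjusted p = 0.075), made up of 0.01 in batch 1 alone and 0.53 in batch 2 alone (adjusted p = 0.0033). With paired libraries it was 0.44 (adjusted p = 0.034), and without the HHH library of batch 1 replicate 3 it was 0.42 (adjusted p = 0.014). The paired fit draws nothing from that library either, so these fits overlap. The difference between the batches was 0.52 ± 0.15 (SE), with an unadjusted p of 0.0036 and an adjusted p of 0.11. DESeq2 gave 0.54 with an adjusted p of 0.018, so the call on this difference rests on the tool.

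Reads of TDGF1 are shared in part with an intronless copy, TDGF1P3, also known as CRIPTO3. In GENCODE 44 the coding sequences of both are 567 bases long and differ at 7 positions, and 38.1% of the runs of 50 bases in the TDGF1 transcript TDGF1-201 also occur in TDGF1P3. The stretch of 60 bases with most differences, from base 6 to base 65 of each coding sequence, is shown because reads over it can tell the genes apart only by the bases in capitals, which mark the 2 positions that differ.
TDGF1: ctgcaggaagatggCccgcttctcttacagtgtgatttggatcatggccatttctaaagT
TDGF1P3: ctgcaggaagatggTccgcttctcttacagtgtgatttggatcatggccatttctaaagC
Counts of TDGF1P3 were 26.6% to 32.4% of those of TDGF1 in every library, and its log2 fold change of 0.31 ± 0.10 (SE, adjusted p = 0.087) was close to that of TDGF1. Summed over TDGF1 and its listed copies, the log2 fold change was 0.33 ± 0.10 (SE, adjusted p = 0.080). As TDGF1 and TDGF1P3 had close values, their sum had to lie near both. Reads dropped for matching both genes would be absent from the sum, so the effect of read assignment was not tested.

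LEFTY1 (ENSG00000243709, chromosome 1), a secreted inhibitor that binds Nodal and its co-receptor, had the largest difference among the 10 genes. In batch 1 it stood at 7.23 and 16.0 CPM in general and 26.8 and 25.9 CPM in HHH. In batch 2 it stood at 9.54, 9.95 and 8.73 CPM in general and 17.5, 19.2 and 17.8 CPM in HHH. No HHH library overlapped a general library, also across batches, and the general library of batch 1 replicate 2 was the highest of its population. The fold was 2.06 over both batches (log2 1.04 ± 0.15 SE, adjusted p = 8.8e-04), with a log2 value of 1.18 within batch 1 and 0.94 within batch 2. When each library was left out in turn, the value stayed between 0.88 and 1.22 and passed the test in all 10 fits.

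LEFTY2 (ENSG00000143768, chromosome 1), its neighbour and close paralog, stood lower. In batch 1 it was at 2.56 and 4.09 CPM in general and 4.24 and 6.04 CPM in HHH, and in batch 2 at 2.86, 2.33 and 2.18 CPM in general and 3.42, 4.15 and 4.61 CPM in HHH. The populations were apart within each batch, by a small margin in batch 1, but the general library of batch 1 replicate 2 exceeded 1 HHH library of batch 2. Its difference on the log2 scale was 0.68 ± 0.15 (SE; 95% interval 0.35 to 1.01; adjusted p = 0.017). With paired libraries it was 0.55 with an adjusted p of 0.078, and without the general library of batch 2 replicate 3 it was 0.63 with an adjusted p of 0.053, so the call on LEFTY2 depends on the fit more than those on NODAL and LEFTY1.

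The coding sequences of LEFTY1 and LEFTY2 were identical at 1067 of 1096 aligned positions (97.4%) in GENCODE 44, with a longest identical run of 300 bases. Of all runs of 50 bases in the transcript LEFTY1-201, 31.3% also occur in LEFTY2. How reads that match both genes were counted is not given in the sources used here. With the counts of both genes summed, the log2 fold change was 0.98 ± 0.14 (SE, adjusted p = 8.0e-04). As LEFTY1 held most of these counts, the sum had to lie near its value. Reads dropped for matching both genes would be absent from this sum too, so the effect of read assignment was not tested. LEFTY2 shares 7.66% of its exon bases with a long noncoding RNA (ENSG00000248322) that had 14 to 37 counts.

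ACVR1B (ENSG00000135503, chromosome 12), the type I receptor known as ALK4, ranged from 27.2 to 34.7 CPM in general and 25.3 to 31.4 CPM in HHH libraries. In batch 2 its 3 HHH libraries lay below the 3 general ones, while in batch 1 they overlapped. The log2 fold change was -0.09 ± 0.08 (SE; 95% interval -0.26 to 0.07; adjusted p = 0.53).

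ACVR2A and ACVR2B are the type II receptors. ACVR2A (ENSG00000121989, chromosome 2) stood at 49.8 and 46.7 CPM in general and 44.6 and 43.9 CPM in HHH in batch 1. In batch 2 it stood at 34.2, 35.7 and 32.4 CPM in general and 31.4, 31.0 and 33.4 CPM in HHH. The batches were further apart than the populations, and the log2 fold change was -0.11 ± 0.06 (SE; 95% interval -0.24 to 0.03; adjusted p = 0.36). It shares 6.68% of its exon bases with ORC4 on the opposite strand, and since no source states that counting used the strand, reads there cannot be told apart.

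ACVR2B (ENSG00000114739, chromosome 3) stood at 62.2 and 52.0 CPM in general and 58.7 and 69.6 CPM in HHH in batch 1. In batch 2 it stood at 70.7, 73.6 and 65.4 CPM in general and 59.7, 61.0 and 46.7 CPM in HHH. Batch 2 had all HHH libraries below the general ones and batch 1 had them overlapping, with the higher mean in HHH. The log2 fold change was -0.13 ± 0.11 (SE; 95% interval -0.36 to 0.11; adjusted p = 0.54), and the batches differed in it by -0.49 ± 0.18 (SE; unadjusted p = 0.015, adjusted p = 0.17).

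SMAD2 (ENSG00000175387, chromosome 18) and SMAD3 (ENSG00000166949, chromosome 15) are the transcription factors that the activated receptors phosphorylate. SMAD2 ranged from 144.6 to 179.4 CPM in general and from 140.8 to 159.7 CPM in HHH, with overlap in both batches and a log2 fold change of -0.05 ± 0.08 (SE; 95% interval -0.21 to 0.12; adjusted p = 0.78). SMAD3 stood at 9.86 and 9.43 CPM in general and 11.8 and 14.8 CPM in HHH in batch 1. In batch 2 it stood at 17.2, 15.5 and 15.9 CPM in general and 16.9, 15.1 and 14.0 CPM in HHH. The general libraries of batch 1 were thus the lowest, and all other libraries lay above them. The log2 fold change of SMAD3 was 0.13 ± 0.11 (SE; 95% interval -0.10 to 0.37; adjusted p = 0.53), from 0.45 in batch 1 alone and -0.08 in batch 2 alone, a difference of -0.54 ± 0.17 (SE; unadjusted p = 0.0077, adjusted p = 0.14). These intervals bound the differences of the receptors and SMADs, and a test not passed does not show that the populations were equal.

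The test of a difference in response between the batches was passed by 0 of the 10 genes with edgeR, against 0.777% of all tested genes. At an unadjusted p under 0.05 there were 3, TDGF1, SMAD3 and ACVR2B, and DESeq2 called 1, TDGF1. Without the general library of batch 1 replicate 2, edgeR called 1, LEFTY1 (-0.91, adjusted p = 0.031). The share of all genes was not computed for the unadjusted threshold, for DESeq2 or for this left-out fit. Whether these counts exceed that share is thus not known. With batch 2 alone, 5 of the 10 were called (NODAL, GDF3, TDGF1, LEFTY1 and LEFTY2), all higher in HHH, where 13.2% of all genes were called. With batch 1 alone, 0 of 10 were called, where 0.573% of all genes were. NODAL, LEFTY1 and LEFTY2 had all HHH libraries above all general libraries in each batch, where 9.35% of all genes were apart in the same direction in each batch (3.93% higher in HHH and 5.42% lower).

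The batches themselves differed in 5 of the 10 genes, against 47.9% of all tested genes (24% higher and 23.9% lower in batch 2). SMAD3 was higher in batch 2 (log2 0.48 ± 0.11 SE, adjusted p = 0.0036). ACVR2A (-0.49 ± 0.06 SE, adjusted p = 3.7e-05), NODAL (-0.44 ± 0.14 SE, adjusted p = 0.017), LEFTY1 (-0.42 ± 0.16 SE, adjusted p = 0.037) and TDGF1 (-0.28 ± 0.10 SE, adjusted p = 0.038) were lower in batch 2. In size, the estimates for NODAL and LEFTY1 were below their differences between populations, while those for ACVR2A and SMAD3 were above theirs. Without the general library of batch 1 replicate 2 the count fell to 2, ACVR2A and SMAD3.

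Levels of different genes were compared per length with the deposited log2 RPKM, from which a batch effect had been removed. TDGF1 was highest in each population, at 6.25 ± 0.30 (SD, n = 5) in general and 6.44 ± 0.30 in HHH. In general libraries SMAD2 (3.57 ± 0.18) and ACVR2B (3.46 ± 0.15) came next and overlapped each other. A lower group of ACVR2A (2.63 ± 0.17), ACVR1B (2.48 ± 0.09) and LEFTY1 (2.48 ± 0.41) followed, and neighbours in it overlapped too. GDF3 (1.37 ± 0.35) and NODAL (0.98 ± 0.24) were lower and overlapped, and SMAD3 (0.53 ± 0.09) and LEFTY2 (0.28 ± 0.32) were lowest and overlapped. In HHH, LEFTY1 was at place 2 with 3.43 ± 0.07 (SD, n = 5), in a group with SMAD2 (3.39 ± 0.10) and ACVR2B (3.18 ± 0.14), and above ACVR2A (2.39 ± 0.15) and ACVR1B (2.25 ± 0.11), which overlapped. GDF3 (1.73 ± 0.44) and NODAL (1.63 ± 0.20) overlapped, and LEFTY2 (0.83 ± 0.28) overlapped SMAD3 (0.53 ± 0.12). The order depends on the length assigned to a gene. The deposited values imply 13952 bases for SMAD2, where merged GENCODE 44 exons cover 36426, and with the latter SMAD2 came to place 5 and ACVR2B to place 6 in each population, while TDGF1 stayed at the top and LEFTY1 in HHH at place 2. The ligand NODAL was therefore among the low genes of the set and its co-receptor the highest, on either length.

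**Figure D3:**
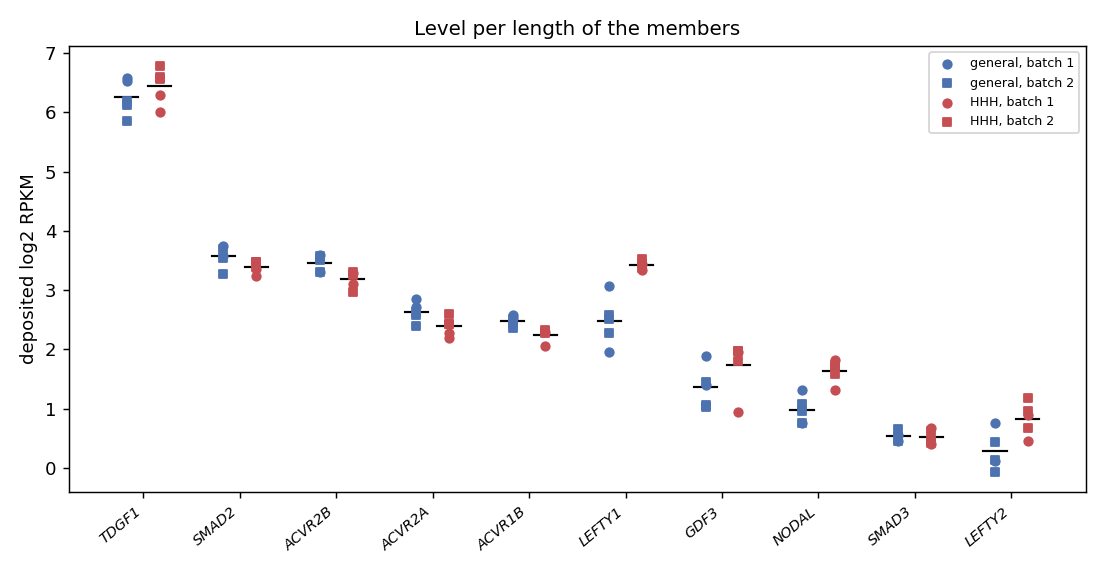
Deposited log2 RPKM of the 10 Nodal genes in the 10 libraries, ordered by the mean of the general population (blue, general; red, HHH; circles, batch 1; squares, batch 2; black lines, means). LEFTY1 lies beside ACVR1B in general libraries and beside SMAD2 in HHH libraries.

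Ratios of counts within a library do not depend on library size. LEFTY1 had 2.83 to 6.32 times the counts of LEFTY2. In general libraries the ratio was 2.83 and 3.91 in batch 1 and 3.33, 4.26 and 4.0 in batch 2, and in HHH libraries it was 6.32 and 4.28 in batch 1 and 5.13, 4.64 and 3.85 in batch 2. The populations were apart in batch 1 and overlapped in batch 2, and the within-batch difference of the log2 ratio was 0.40 (exact permutation test within batches, two-sided, p = 0.067, 0.27 adjusted over 4 ratios). NODAL had 0.181 to 0.293 times the summed counts of LEFTY1 and LEFTY2. Its log2 ratio to them was -2.02 ± 0.23 (SD, n = 5) in general and -2.24 ± 0.18 (SD, n = 5) in HHH, a within-batch difference of -0.22 (exact permutation p = 0.20, adjusted 0.27). The difference of the log2 ratio of ACVR2A to ACVR2B was 0.03 (exact permutation p = 0.80, adjusted 0.80), with opposite signs in the batches (-0.29 and 0.24). For SMAD2 to SMAD3 it was -0.18 (exact permutation p = 0.20, adjusted 0.27). The smallest p that the 120 arrangements allow is 0.017, which for a single ratio is 0.067 after adjustment over 4, so 1 ratio alone could not have passed 0.05 after adjustment. None of the 4 was shown to differ. The spread among libraries of the same population and batch (pooled SD) was 0.17 to 0.29 on the log2 scale.

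**Figure D4:**
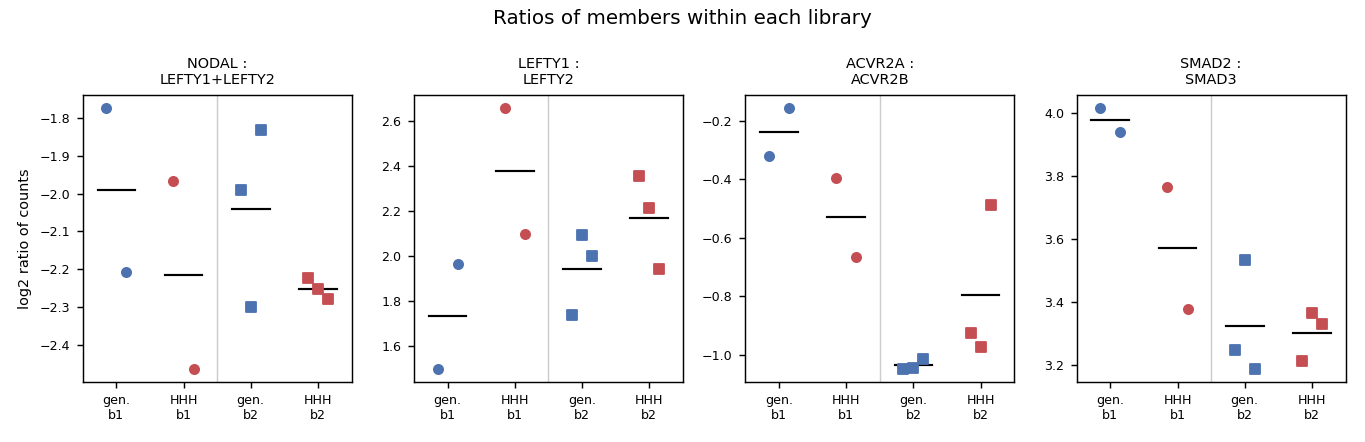
Log2 ratio of counts of 4 pairs of Nodal genes in each library (gen., general; b1 and b2, batches 1 and 2; points, libraries; black lines, means; axes differ and do not start at 0). The ratio of ACVR2A to ACVR2B separates the batches in general libraries, from -0.16 and -0.32 in batch 1 to about -1.0 in batch 2. In HHH libraries the batches overlap, at -0.40 and -0.66 in batch 1 and -0.93, -0.98 and -0.49 in batch 2.

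The pathway holds other genes, and 42 were listed by role, of which 36 passed the filter and 7 passed the test (4 higher and 3 lower in HHH, beside 5.83% of all genes). Their median log2 fold change was 0.03. The list was written with earlier results of these data known. Among other ligands, 2 of 7 tested fell in HHH, TGFB2 (-0.94 ± 0.16 SE, adjusted p = 0.0028) and INHBA, the subunit of activin A (-1.13 ± 0.30 SE, adjusted p = 0.038). INHBA averaged only 0.868 CPM in general and 0.404 CPM in HHH, and it lost its call when any of 7 single libraries was left out, with adjusted p-values of up to 0.11, and with paired libraries (0.11). Both proprotein convertases that cleave Nodal, FURIN and PCSK6, had differences of 0.02. The second Nodal co-receptor, CFC1, had 0 counts in all libraries.

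Among other inhibitors, FST (follistatin), which binds activins, fell from 15.4 ± 2.60 CPM (SD, n = 5) in general to 5.48 ± 0.89 CPM in HHH (log2 -1.49 ± 0.09 SE, adjusted p = 5.7e-07). It was lower in every HHH library than in any general one of its batch. BAMBI, a pseudoreceptor that blocks type I receptors, rose (0.41 ± 0.09 SE, adjusted p = 0.018). It also passed with paired libraries (adjusted p = 0.027), but in only 7 of 10 fits with a library left out (adjusted p up to 0.066). In batch 1 alone and batch 2 alone BAMBI did not pass (adjusted p = 0.20 and 0.056). CER1, a secreted Nodal antagonist, did not pass the test (0.51 ± 0.17 SE, adjusted p = 0.10). Of the 3 other receptors, TGFBR2, the TGF-beta type II receptor, rose by 0.34 ± 0.08 (SE, adjusted p = 0.020), a call lost with paired libraries (adjusted p = 0.055).

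Of 13 intracellular genes 2 rose and none fell. SMAD7, an inhibitory SMAD induced by the pathway, rose by 0.56 ± 0.12 (SE, adjusted p = 0.011), and SKIL, a SMAD corepressor likewise induced, by 0.50 ± 0.10 (SE, adjusted p = 0.0086). SMAD7 also passed with paired libraries (adjusted p = 0.028), but not in batch 1 alone or batch 2 alone (adjusted p = 0.067 and 0.066). Its populations overlapped in batch 2. SMAD4, the shared partner of SMAD2 and SMAD3, stood at -0.30 ± 0.08 (SE, adjusted p = 0.051), and FOXH1 at -0.16 ± 0.10 (SE, adjusted p = 0.40). Of the 6 mesendoderm and other target genes, 3 were tested and none passed, MIXL1 with 0.33 ± 0.20 (SE, adjusted p = 0.36) among them. EOMES, GSC and FOXA2 had too few counts. So the inhibitors named above moved in different directions, LEFTY1, LEFTY2 and BAMBI up and FST down.

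**Figure D5:**
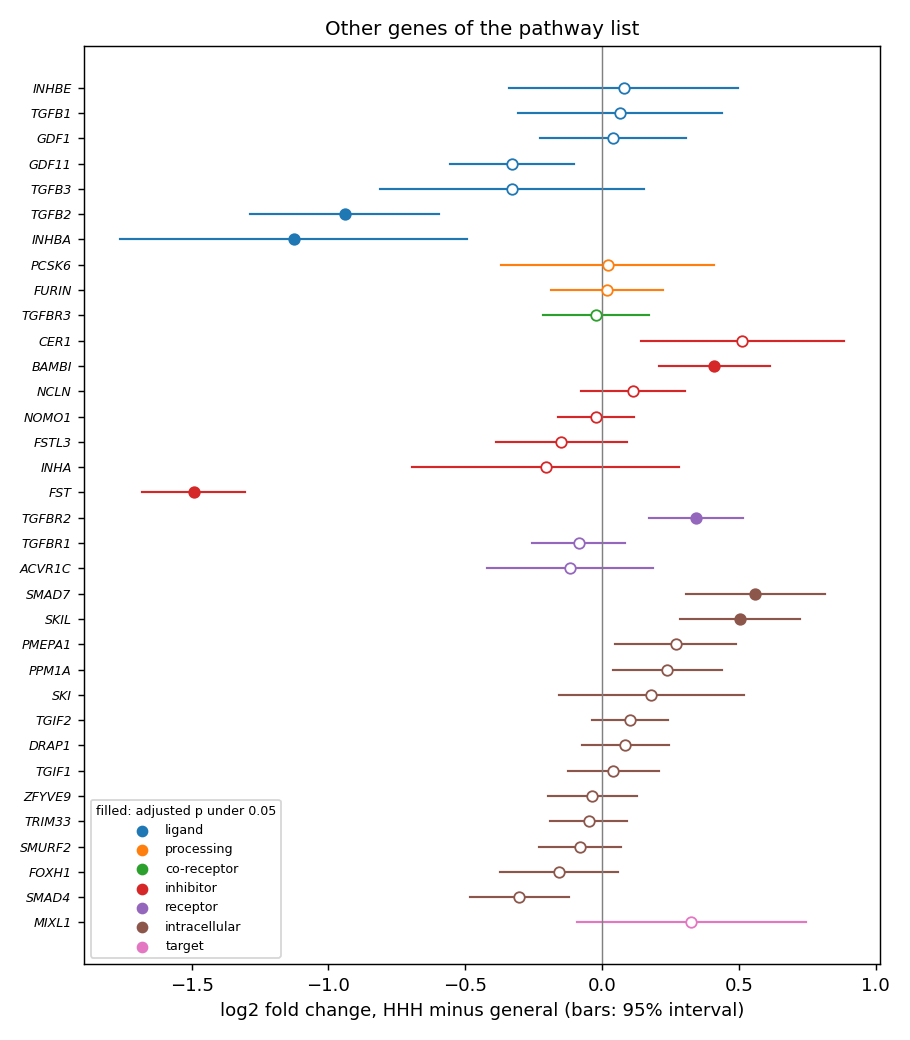
Log2 fold change, HHH minus general, with 95% intervals, of tested genes of the pathway list other than the 10 Nodal genes, grouped by role (colour) and filled where the adjusted p was under 0.05. Of the genes shown, FST has the lowest value, at -1.49, and SMAD7 the highest, at 0.56.

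Genes whose pattern over the 10 libraries was most like that of NODAL or LEFTY1 were found by the mean absolute difference of log2 CPM, each batch centred, among 15662 genes with a symbol and a mean of at least 1 CPM. Nearest to NODAL were PDE4B (0.10), FGF13-AS1 (0.11), ZDHHC14 (0.12), SNORD100 (0.13) and SYNPO2 (0.13). Nearest to LEFTY1 were DACT1 (0.15), SLA (0.16), PDE4B (0.16), CYTOR (0.17) and AK4P1 (0.17). Of the other Nodal genes, NODAL stood at place 10 in likeness to LEFTY1 and LEFTY2 at place 20, both nearer than GDF3 at 107 and TDGF1 at 452. In likeness to NODAL, LEFTY1 stood at place 108, LEFTY2 at 149, GDF3 at 299 and TDGF1 at 684. The receptors and SMADs stood at place 5964 or beyond from either gene. This order is a description of 10 libraries that share 2 populations.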

How the data were processed

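RNA from the general and HHH populations of the HES9 line (5 libraries each) was made into TruSeq libraries and sequenced. The authors deposited whole fragment counts per Ensembl gene, not normalized, and log2 RPKM values after TMM scaling (a score on a log2 scale), which are empty where the count is 0 and have equal batch means to within 9.24e-14 per gene. The submitters' processing notes name CASAVA 1.8.2, R 3.2.2, limma 3.26.9 and GRCh37. The aligner, counter and annotation are not given in the sources used here.

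Symbols, exon bases and transcripts came from GENCODE 44 (88.5% of identifiers matched) and promoters from RefSeq (GRCh38.p14), so no gene coordinates are given. Counts were filtered by filterByExpr (minimum count 10), scaled by TMM (factors 0.832 to 1.18) and tested by the quasi-likelihood test of edgeR 4.0.16 in R 4.3.3, HHH against general with batch as a term, two-sided, Benjamini-Hochberg adjusted over 23552 genes, with calls at 0.05. Ratios were tested by exact permutation within batches. All 10 Nodal genes, the pathway genes called and the 5 genes nearest in pattern were named. The members and lists were chosen with earlier results of these data known.

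Same-numbered libraries of batch 2 deviated together (correlations 0.239, 0.143 and 0.113). In batch 1, with 2 libraries a population, all correlations have the same size by construction (0.113 or -0.113, also between unlike numbers) and do not bear on pairing. The 3 pairs of batch 2 each exceeded 0.1, but the lowest, 0.113, had the same size as the batch 1 values. This is weak evidence of pairing, which the labels do not state. The numbers were still taken to pair libraries, and a fit with this block was an alternative. Others were no batch term, other scalings and filters, DESeq2 1.42.0, limma 3.58.1 with voom or on the deposited log2 values, batches alone, summed copies and each library left out. Centring the deposited values and GENCODE lengths were added after seeing the data. The fit was tested on simulated data. Some features are not reported here.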

Additional observations from a re-analysis of the deposited data

Results flagged for a closer look

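The HHH difference of SKI, a SMAD corepressor of the pathway list, differed between the batches by -1.04 on the log2 scale (batch 2 minus batch 1; adjusted p = 0.014 by edgeR's interaction test), with 0.81 in batch 1 alone and -0.23 in batch 2 alone. It was flagged by the test of that difference, which 0.777% of all genes passed. No library stood apart from its population in any of the 28 sets of 5 values examined for the 10 Nodal genes and their 4 ratios, where chance alone flags about 1 in 20. Each set pooled both batches, so a library unlike the others of its batch could go unflagged. LEFTY1, at 7.23 and 16.0 CPM in the general libraries of batch 1, was not flagged.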

How the results depend on the processing

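The number of Nodal genes called, 3 of 10, was 1 (LEFTY1) without a batch term, 5 (GDF3 and TDGF1 besides) with no filter, with DESeq2 and in batch 2 alone, 0 in batch 1 alone and 4 with the replicate block (NODAL, LEFTY1, GDF3 and TDGF1, without LEFTY2). It ran from 2 to 5 when each library was left out, with 5 without HHH batch 1 replicate 3. The 7 pathway genes called became 2 without a batch term, 11 with no filter, 3 on the deposited log2 values, 2 in batch 1 alone and 4 to 10 with a library left out. Over all genes, 1373 calls became 136 to 3166. The genes called for the difference between batches were 1 with DESeq2 and 0 to 1 with a library left out, and those that differed between batches 2 to 6. Signs turned for values never called: SMAD3 was -0.0058 on the deposited log2 values, where the median of all genes shifted to -0.13, and -0.084 in batch 2 alone. In batch 1 alone ACVR1B was 0.039, ACVR2B 0.16 and SMAD2 0.036, and SMAD2 ran from -0.084 to 0.0051 with a library left out, the last without general batch 2 replicate 2. The log2 ratio of ACVR2A to ACVR2B was -0.29 in batch 1, 0.24 in batch 2 and -0.087 to 0.12 with a library left out, and that of SMAD2 to SMAD3 -0.41 in batch 1. The cause was not tested. NODAL and LEFTY1 stayed higher in HHH in all 24 alternatives each, and past the threshold in all but 2 (NODAL, no batch term and batch 1 alone) and 1 (LEFTY1, batch 1 alone). Batch 1 has 2 libraries a population, which limits what it can show alone, and the block leaves out the information of the unpaired libraries of batch 1.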
